A study of Mus musculus with 6 samples.

Results

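The genes described here encode 10 cation channels that open to force, heat, chemicals or extracellular ATP: Piezo1, Piezo2, Trpv1, Trpv2, Trpv4, Trpa1, Trpm7, Trpc1, P2rx4 and P2rx7. They were taken by symbol, as a list given by name, from a table of 54309 genes, and together have 79 annotated transcripts. The list does not cover whole families, and it was chosen with earlier results of these data known. The tissue was the distal piece of the left sciatic nerve from C57BL/6 mice aged 6 to 8 weeks, taken 24 h after surgery, with 3 female and 3 male libraries that each pool 2 animals. The labels do not settle the surgery: a treatment field reads axotomy, the cutting of the nerve, for all 6 libraries, while the procedure written for the same libraries exposes the nerve and leaves it uncut. Both sexes share that surgery, so the data allow a description of the nerve after it and a comparison of female with male nerves. No unoperated nerve was analysed here.

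Piezo channels are large force-gated cation channels; Piezo2 is best known from touch and body-position sense in sensory neurons, and Piezo1 from blood vessels and many non-neuronal cells. TRP channels are a broad family of cation channels, among them the heat and capsaicin receptor of pain neurons (Trpv1) and the irritant receptor (Trpa1). P2X receptors open when ATP leaks from damaged cells, and in nerves and spinal cord P2rx4 and P2rx7 are studied mainly for their roles in macrophages, microglia and glia. A peripheral nerve holds axons, but the cell bodies of its neurons lie elsewhere, so most RNA in such a sample comes from Schwann cells, connective tissue, vessels and immune cells.

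Schwann cell markers were abundant in every library: the summed TPM (a level corrected for transcript length and scaled to the same total in each library) of 10 such genes ran from 10556 to 16417 in female libraries and from 21781 to 27580 in male ones. The 10 sensory neuron markers summed to 18.3 to 27.8 TPM in females and 20.9 to 25.6 TPM in males. The highest of them were Tubb3, Snap25, Prph and Calca, with means of 13.3, 3.4, 3.03 and 2.62 TPM. The pain neuron sodium channel genes Scn10a and Scn11a were at no more than 0.0522 TPM in any of the 6 libraries. Libraries held 55272138 to 77610593 estimated reads. Female 2 and male 1 stood apart by their skeletal muscle markers, whose summed level was 995 TPM in female 2 and 13.1 and 20.1 TPM in the other females, against 490 TPM in male 1 and 7.92 and 8.66 TPM in the other males. The fold changes of the channel genes between the sexes are given with and without these libraries.

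Several of the channel genes make transcripts that differ in the coding sequence, and the stretches below show what separates those that carried most of the reads. They are from the GENCODE M21 transcripts (GRCm38), which hold all 79 member transcripts by identifier and at the same length; the sources used here do not name the annotation release behind the deposited tables. Each is written 5′ to 3′ on the strand of the gene, with the bases that one transcript has and its partner lacks in capitals and 15 bases of neighbouring coding sequence on a side in lower case.
P2rx4 exon 6, chr5:122724594-122724674 (+), 81 bases, in P2rx4-201 and absent from P2rx4-202: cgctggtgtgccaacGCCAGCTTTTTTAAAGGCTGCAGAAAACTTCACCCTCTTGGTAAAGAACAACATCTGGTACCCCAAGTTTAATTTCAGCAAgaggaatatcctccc
P2rx4 exon 10, chr5:122727399-122727464 (+), 66 bases, in P2rx4-201 and absent from P2rx4-206: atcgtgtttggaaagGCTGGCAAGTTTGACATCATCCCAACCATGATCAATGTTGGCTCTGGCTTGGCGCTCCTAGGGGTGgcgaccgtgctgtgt
Trpc1 exon 3, chr9:95736820-95736921 (-), 102 bases, in Trpc1-204 and absent from Trpc1-201: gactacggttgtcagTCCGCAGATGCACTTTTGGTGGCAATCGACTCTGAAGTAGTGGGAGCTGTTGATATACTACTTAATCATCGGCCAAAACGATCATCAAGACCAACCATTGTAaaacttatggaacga
Piezo1-209, start of exon 6, chr8:122502122-122502311 (-): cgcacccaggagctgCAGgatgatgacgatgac
Piezo1-201, the same exon without those 3 bases: cgcacccaggagctggatgatgacgatgac
Trpm7-202, start of exon 29, chr2:126805017-126805087 (-): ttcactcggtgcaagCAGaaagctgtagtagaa
Trpm7-201, the same exon without those 3 bases: ttcactcggtgcaagaaagctgtagtagaa

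For P2rx7 the difference is the last exon, which follows the same exon 12 in 3 coding transcripts. Here the capitals mark the first 39 bases of that last exon, or all of it up to and including the stop codon where that comes first.
P2rx7-203, 595 codons, last exon chr5:122680807-122684289 (+): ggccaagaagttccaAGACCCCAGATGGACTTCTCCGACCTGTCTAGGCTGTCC
P2rx7-204, 431 codons, last exon chr5:122683175-122684297 (+): ggccaagaagttccaACCTAG
P2rx7-201, 442 codons, last exon chr5:122691253-122691432 (+): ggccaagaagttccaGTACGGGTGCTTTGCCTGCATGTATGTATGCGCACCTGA
In P2rx7-203 this exon adds 495 coding bases, the long intracellular tail of the receptor. In P2rx7-204 it adds 3 coding bases before the stop codon TAG, and in P2rx7-201 it adds 36 before TGA.

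P2rx4 and P2rx7, the ATP-gated receptors, had the highest levels, with means of 86.0 ± 23.1 and 46.0 ± 2.66 TPM (SD, n = 6 libraries, as for the means that follow in this paragraph). Trpm7 at 38.3 ± 5.46, Piezo1 at 28.4 ± 3.16, Trpv2 at 22.3 ± 3.90 and Piezo2 at 21 ± 2.29 TPM followed. Trpv4 averaged 7.31 ± 1.07 TPM and Trpc1 3.16 ± 0.383 TPM. Trpv1, at 0.601 ± 0.239 TPM, was low but read in every library, and Trpa1 had at most 3 reads in a library. Set against the 19129 genes kept by the low-count filter, P2rx4 had a higher mean TPM than 90.5% of them, Piezo1 than 71.9%, Trpc1 than 34.7% and Trpv1 than 16.8%.

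Neighbours in this order were not all distinct. The library ranges of P2rx4 and P2rx7 did not overlap (57.7 to 127 against 42.3 to 49.5 TPM). P2rx7 and Trpm7, Trpm7 and Piezo1, and Piezo1 and Trpv2 overlapped in range, though the higher of each pair was above the other in 6 of 6 libraries. Trpv2 was above Piezo2 in 4 of 6 libraries, so their order is not resolved. Below them, Piezo2, Trpv4, Trpc1, Trpv1 and Trpa1 were separated from one another with no overlap. With protein coding transcripts alone the order was the same, but Trpv2 then stood clear of Piezo2 (15 against 8.83 TPM) while P2rx4 and P2rx7 overlapped. Piezo2 and Trpv4 then overlapped too, in order in 5 of 6 libraries, and Piezo1 was above Trpv2 in 4 of 6.

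**Figure D1:**
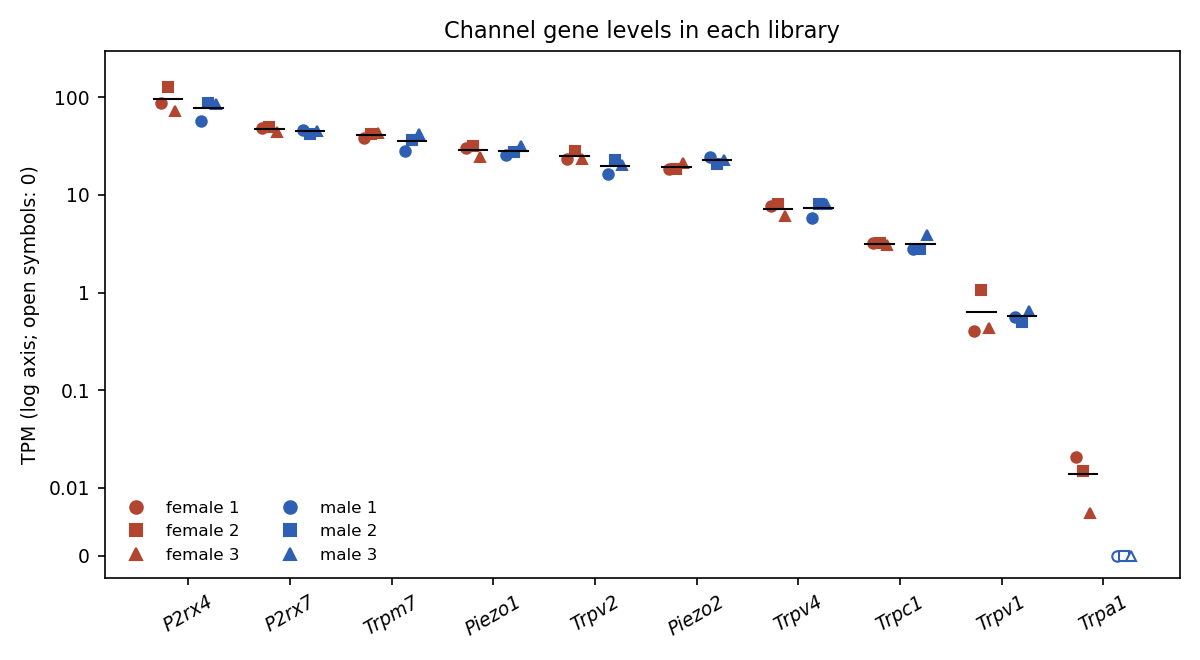
TPM of the 10 channel genes in each library on a log axis, females left of males, with a bar at the mean of each sex and open symbols for a level of 0. P2rx4 is the highest in every library, and Trpa1 has a few reads in females and none in males.

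P2rx4 encodes an ATP-gated channel of macrophages and microglia that is held largely in lysosomes. It stood at 87.3, 127 and 71.7 TPM in females 1 to 3, against 57.7, 88.3 and 84.7 TPM in males 1 to 3. The highest library was female 2 and the lowest male 1, and the groups overlapped. P2rx4 took 53.8% to 70.1% of the summed TPM of the 7 P2X genes. P2rx7, whose receptor needs high ATP and drives the release of interleukin-1β from macrophages, was the steadiest of the channel genes, at 48.1, 49.5 and 43.9 TPM in females 1 to 3, against 46.6, 42.3 and 45.6 TPM in males 1 to 3. Its highest library was only 1.17 times its lowest. The other 5 P2X genes were all low: P2rx1, a receptor of platelets and smooth muscle, averaged 2.32 ± 0.712 TPM, P2rx5 0.924 ± 0.132 and P2rx3, a receptor of pain neurons, 0.316 ± 0.0886 TPM (SD, n = 6).

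The P2rx4 transcript with the largest share was not the full-length one. P2rx4-202, which skips exon 6 and keeps 361 of the 388 codons of P2rx4-201, had 42.4, 55.9 and 30.2 TPM in females 1 to 3, against 29.5, 41.8 and 39.9 TPM in males 1 to 3, which was 42.1% to 51.2% of the TPM of the gene. P2rx4-201 had 6.51 to 10.9 TPM, a share of 7.5% to 11.3%, and P2rx4-206, which skips exon 10, had 13% to 19.9%. The skipped exons are in frame, at 27 and 22 codons. The models differ outside the coding sequence too: P2rx4-201 has 1428 bases after its coding sequence, P2rx4-202 has 734 and P2rx4-206 has 13. The deposited tables hold no reads over single junctions, so how much of each share rests on the exon and how much on the ends was not tested.

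For P2rx7 the full-length P2rx7-203 led in every library, at 28.4 to 29.96 TPM in females and 29.8 to 30.5 TPM in males, 59.1% to 72.0% of the gene. The forms that end early each held less: P2rx7-204 held 6.37% to 10.4% and P2rx7-201 held 1.99% to 8.10%. A shorter coding model, P2rx7-202 with 153 codons, held 5.92% to 11.2%. A further transcript, P2rx7-205, picked with its values in view, was given 607 reads in female 1 and 563 in male 1 and none in the other 4 libraries. All 2103 bases of this unspliced model lie inside the last exon of P2rx7-203. It made up 13.7% and 12.0% of the gene's TPM in those 2 libraries, and among coding transcripts alone P2rx7 ran from 37.9 to 44.5 TPM in females and 37.8 to 41.7 TPM in males.

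Piezo1 and Piezo2 were both present in every library. Piezo1 stood at 30.1, 31.5 and 24.3 TPM in females 1 to 3, against 25.6, 27.3 and 31.8 TPM in males 1 to 3. Piezo2 stood at 18.6, 18.6 and 21 TPM in females 1 to 3, against 24.3, 20.7 and 22.8 TPM in males 1 to 3. In both genes the sexes overlapped. Over coding transcripts alone, Piezo1 averaged 16.0 ± 3.16 TPM and Piezo2 8.83 ± 1.63 TPM (SD, n = 6), and their ranges overlapped, at 10.6 to 19.6 and 6.19 to 11.2 TPM.

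For Piezo2, the leading transcript was a model tagged as nonsense-mediated decay, the pathway that destroys RNAs with an early stop. Piezo2-205 held 33.6% to 50.9% of the TPM of the gene. It is a 3200-base model with no annotated start, and all of its bases lie within exons of the 54-exon Piezo2-202, 1587 of them in its last exon. The 3 long coding models Piezo2-209, Piezo2-215 and Piezo2-202 held 8.36% to 18.3%, 8.89% to 16.1% and 6.80% to 10.5%. The gene-level TPM of Piezo2 therefore rests in good part on a fragment model, and coding transcripts made up 33.3% to 49.8% of it.

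In Piezo1, 2 coding models with 51 exons differ in 1 exon, by the 3 bases CAG printed above. Piezo1-209, which has them, held 34.8% to 55% of the TPM of the gene, and Piezo1-201, which lacks them, 5.30% to 9.67%. The form with CAG was the higher in 6 of 6 libraries. Retained-intron models took 24.2% to 40.3% of Piezo1, with the highest share in male 1. Piezo1 lies opposite Ctu2 and a long gene model, Gm20388, on the other strand, and the sources used here do not say if counting took account of strand, so reads of these genes may not be told apart from its own.

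Trpm7 encodes a magnesium and calcium channel fused to a kinase and is found in most cell types. It stood at 38.2, 42 and 42.8 TPM in females 1 to 3, against 28.5, 36.2 and 42.1 TPM in males 1 to 3. Male 1 was the lowest library and the groups overlapped on this scale. Trpm7-202 held 60.5% to 63.5% of the gene, the narrowest range of any leading transcript in the plot of transcript shares, and Trpm7-201, without CAG at exon 29, held 9.76% to 15.4%. These 2 models also differ at both ends, with 254 and 141 bases before the coding sequence.

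**Figure D2:**
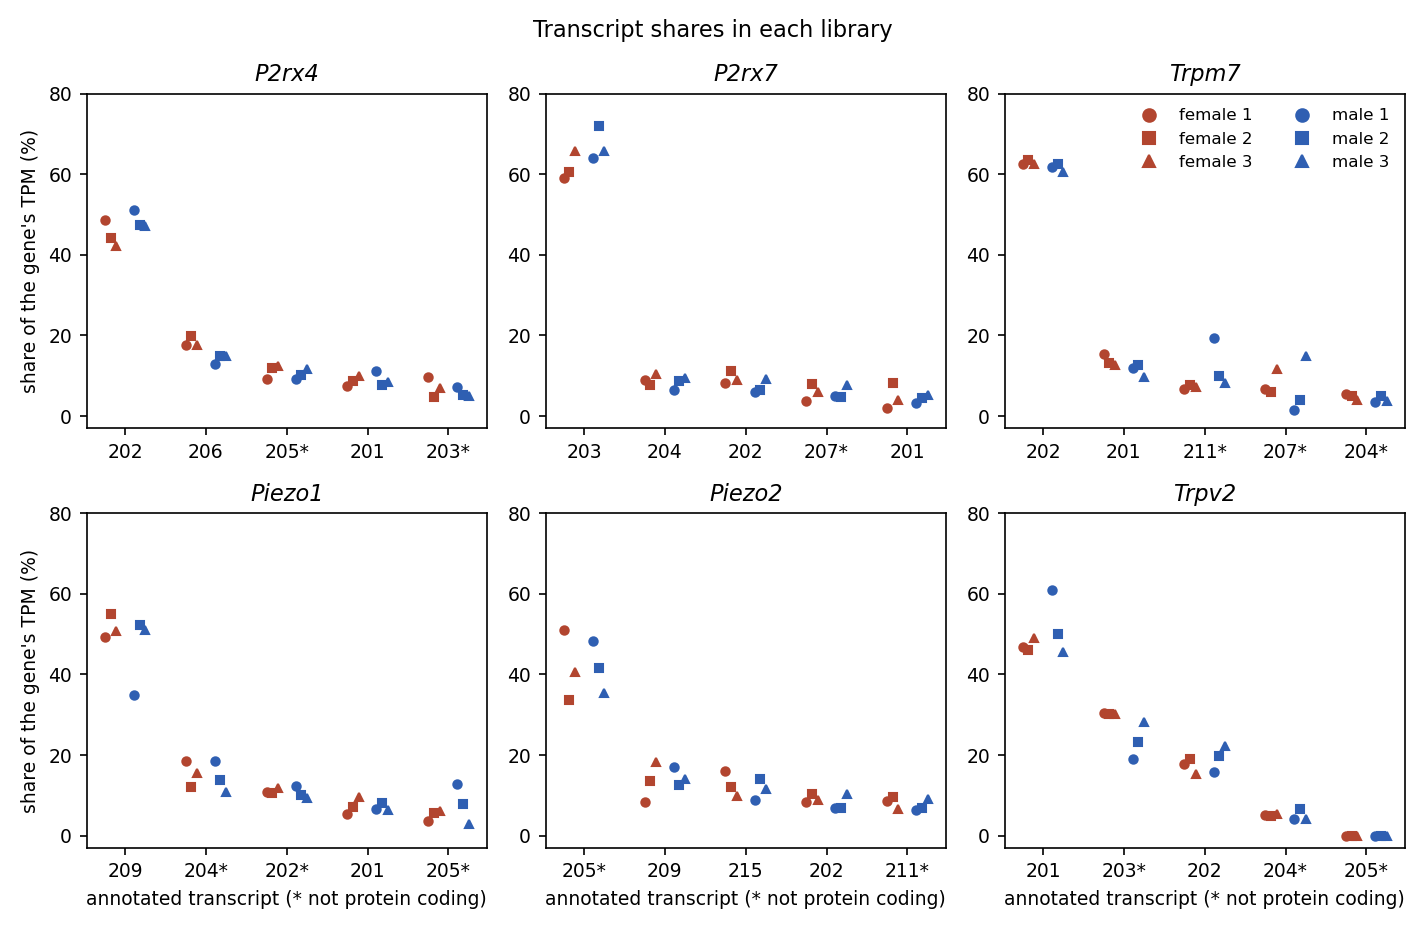
Share of a gene's TPM held by its 5 leading annotated transcripts in 6 genes, 1 point per library, females left of males; an asterisk marks a transcript not annotated as protein coding. P2rx7-203 and Trpm7-202 hold 59.1% or more in every library, while Piezo2 is led by the nonsense-mediated decay model 205.

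Trpv2, a channel of macrophages, large sensory neurons and muscle, stood at 23.5, 27.9 and 23.4 TPM in females 1 to 3, against 16.2, 22.6 and 20.1 TPM in males 1 to 3. All females were above all males on this scale, which held for 8.63% of all genes in this direction and 19.5% in either; Trpv2 was the only 1 of the 9 tested channel genes whose sexes did not overlap in TPM. In reads scaled to library size (CPM, with TMM factors) the groups overlapped, at 36.9 to 43.8 CPM in females and 29.5 to 37.6 CPM in males. Its coding models Trpv2-201 and Trpv2-202, which have the same coding length of 756 codons, held 45.5% to 60.9% and 15.3% to 22.1% of the gene. A 1005-base noncoding model, Trpv2-203, held 30.1% to 30.3% in females and 19.1% to 28.2% in males.

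Trpv4, an osmotic and warmth sensor of vessels, epithelia and connective tissue, stood at 7.62, 8.09 and 6.04 TPM in females 1 to 3, against 5.86, 8.09 and 8.16 TPM in males 1 to 3. Trpc1, a subunit of calcium entry channels, stood at 3.23, 3.18 and 3.09 TPM in females 1 to 3, against 2.81, 2.79 and 3.84 TPM in males 1 to 3. For both genes the ranges of the sexes overlapped. Trpc1-204, which includes the 34-codon exon 3, held 69.5% to 82.8% of Trpc1, against 5.19% to 21.4% for Trpc1-201 without it; these models also differ after the coding sequence, by 1661 against 116 bases.

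Both classical pain receptor genes were near or at the bottom. Trpv1 had 73, 175 and 74 reads in females 1 to 3, against 111, 62 and 82 reads in males 1 to 3, and female 2 was 2.61 times the lowest library in TPM. Trpa1 had 3, 2 and 1 reads in females 1 to 3 and none in the males. A library with no read allows up to 3 reads, at most 0.0543 CPM here, so Trpa1 was not detectable above that limit in males. That limit does not apply to the females, where the reads seen came to at most 0.0407 CPM. No fold was taken. The limit covers counting error only.

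Among 28 TRP family genes, Trpm7 ranked 3, Trpv2 4, Trpv4 8, Trpc1 9, Trpv1 13 and Trpa1 23 by mean TPM over all transcripts. Above Trpm7 were Pkd2, a channel of cilia and the endoplasmic reticulum, at 46.5 ± 2.25 TPM, and lysosomal Mcoln1 at 41.1 ± 3.87 TPM. Mcoln2, also lysosomal, followed Trpv2 at 14.5 ± 3.82 TPM (SD, n = 6). Over coding transcripts alone, Mcoln1 averaged 21.5 TPM, below Trpm7 at 29.6 TPM. Trpm2 and Trpm4, above Trpv4 over all transcripts, then averaged 2.75 and 3.92 TPM, below Trpv4 at 6.06 TPM. Trpm8, the cold receptor gene of sensory neurons, averaged 0.0122 TPM, and Trpc2, Trpv5 and Trpv6 were listed at 0 in every library. Over all transcripts, other force-gated channel genes reached levels close to those of the Piezos. Tmem63a averaged 29.9 ± 3.17 and Tmem63b 26.5 ± 0.980 TPM (SD, n = 6). Over coding transcripts alone, Tmem63a averaged 26.1 and Tmem63b 20.5 TPM, above Piezo1 at 16.0 and Piezo2 at 8.83 TPM. Tmem120a, whose role as a channel is disputed, averaged 45.9 ± 1.84 TPM over all transcripts. Mdfic, an auxiliary subunit of Piezo channels, stood at 76.1 ± 7.04 TPM.

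**Figure D3:**
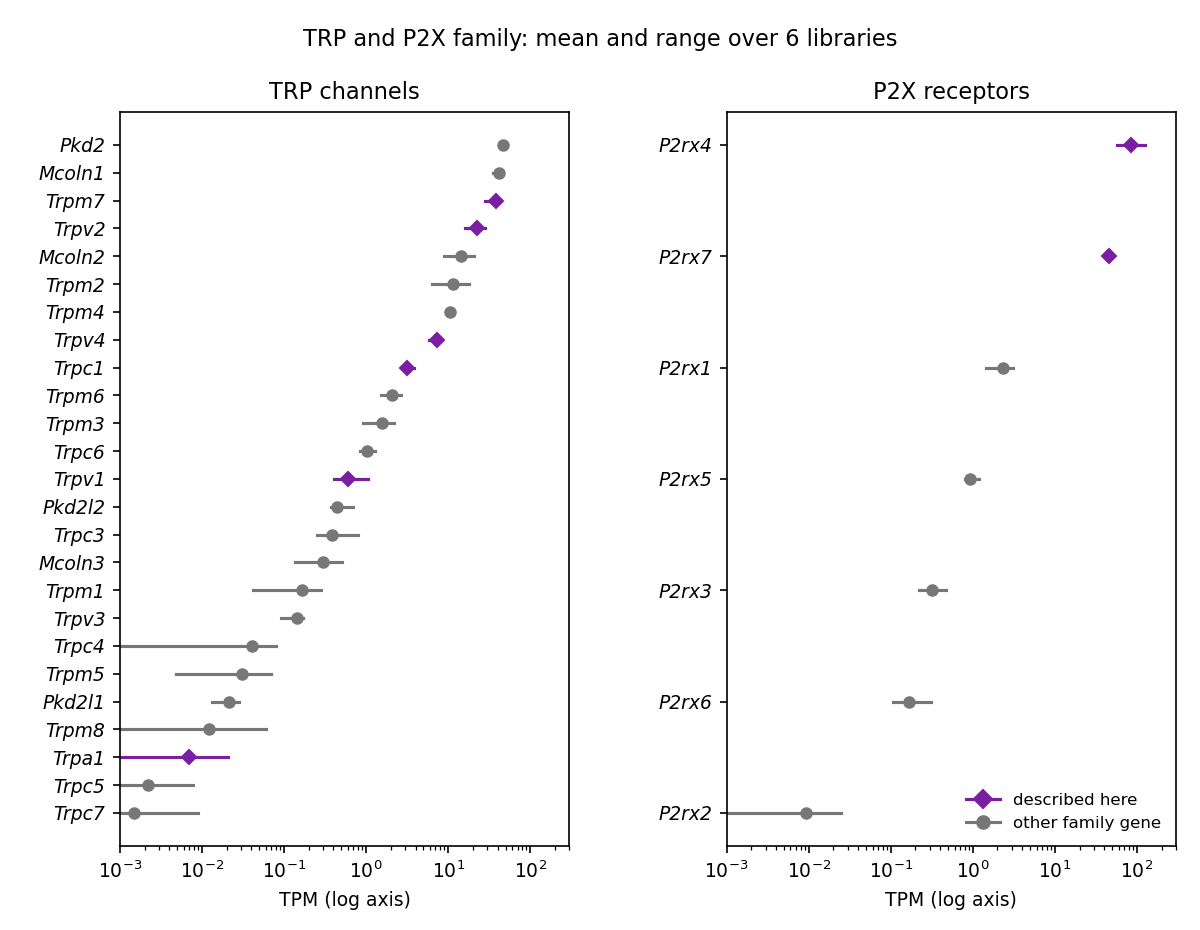
Mean TPM (symbol) and range over 6 libraries (line) of TRP and P2X family genes on a log axis; a line that reaches the left edge includes a library at 0 or under 0.001 TPM, and 3 TRP genes with a mean of 0 are not drawn. P2rx4 and P2rx7 stand apart from the other 5 P2X genes.

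No channel gene passed the threshold between female and male nerves. Of the 9 kept by the low-count filter, which dropped Trpa1, 0 had an adjusted p under 0.05 in edgeR's quasi-likelihood test, against 0.110% of all genes tested; limma-voom and DESeq2 also called 0, against 0.136% and 5.28% of genes. At an unadjusted p under 0.05 there were 2, Trpm7 and Trpv2, where 14.6% of all genes had one. The log2 fold changes, female minus male, ran from -0.17 to 0.27 with a median of 0.17, and 5 of 9 were above 0; over all genes the median was 0.02 and 53.6% were above 0. A gene that does not pass is not shown to be equal in the sexes.

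Trpm7 came nearest to the threshold. It was at 116, 118 and 120 CPM in females 1 to 3, against 86.8, 103 and 102 CPM in males 1 to 3. Every female library was above every male one, which held for 9.65% of all genes in this direction and 21.2% in either. The log2 fold change was 0.27 (SE 0.08, adjusted p 0.213 by edgeR), and its adjusted p ran from 0.0863 to 0.591 over 17 alternative analyses. Trpv2 had the same log2 fold change of 0.27 (SE 0.11, adjusted p 0.326 by edgeR). Without female 2 and male 1 the log2 fold change was 0.20 for Trpm7 and 0.12 for Trpv2. The sexes overlapped in CPM for the other 8 channel genes tested.

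P2rx4 averaged 89.7 ± 26.0 CPM in females and 74.2 ± 11.0 CPM in males (SD, n = 3 each), with a log2 fold change of 0.27 (SE 0.22). Without female 2 and male 1, the libraries with muscle transcripts, it was -0.09. These were also the highest and lowest P2rx4 libraries, at 118 and 61.9 CPM, so leaving them out had to lower the fold change. The same holds for Piezo1 and Trpv2. For Piezo2 male 1 was the highest in CPM and female 2 the lowest, so its fold change had to rise. Piezo2 averaged 65.4 ± 7.71 CPM in females and 73.4 ± 9.49 CPM in males, with a log2 fold change of -0.17 (SE 0.12), and of -0.01 without those 2 libraries. Piezo1 averaged 131 ± 16.4 CPM in females and 116 ± 16.0 CPM in males, with a log2 fold change of 0.18 (SE 0.13), and of -0.02 without those 2 libraries. P2rx7 had a log2 fold change of -0.02 (SE 0.08), Trpv4 of -0.02 (SE 0.14) and Trpc1 of -0.04 (SE 0.12). Without those 2 libraries these were 0.03 for P2rx7, -0.22 for Trpv4 and -0.06 for Trpc1. For Trpv1 the log2 fold change was 0.17 with an SE of 0.40; it was -0.36 without female 2 and male 1, and -0.45 without female 2 alone. None of the 9 genes passed under any of the 17 alternatives.

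**Figure D4:**
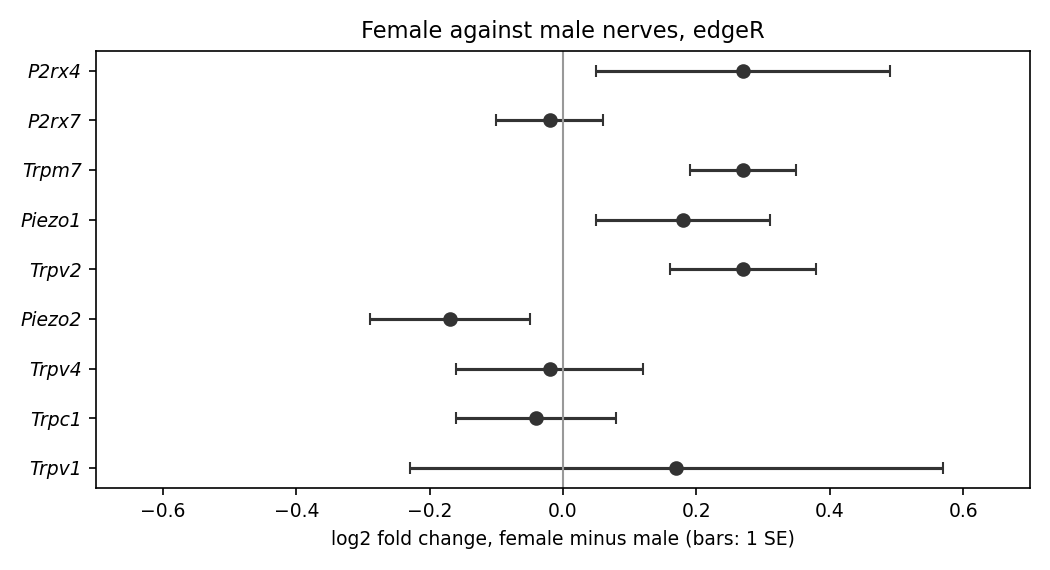
Log2 fold change, female minus male, of the 9 channel genes kept by the low-count filter, with bars of 1 SE from edgeR. The values lie between -0.17 and 0.27 and none passed the threshold.

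Female 2 and male 1, a library of each sex, were often the extreme ones. Leaving both out moved several fold changes between the sexes, as given above. In CPM, P2rx7 and Piezo2 were highest in male 1, P2rx7 at 127 CPM. Among the 9 genes, TPM was lowest in male 1 for 4 (Trpv2, Trpv4, Trpm7 and P2rx4). It was highest in female 2 for 4 (Trpv1, Trpv2, P2rx4 and P2rx7) and in male 3 for Piezo1, Trpv4 and Trpc1. The share of all genes with these extremes was not taken. On the same TPM scale, 9 of 10 macrophage markers were lowest in male 1 and 7 of 10 highest in female 2, and their summed level was 4970, 5371 and 4057 TPM in females 1 to 3, against 3440, 4936 and 4276 TPM in males 1 to 3. Their part in the channel results was not tested. In bulk tissue, fewer cells of a type and less RNA per cell cannot be told apart.

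By root mean square difference of centred log2 CPM over the 6 libraries, P2rx4 was most like Fcgr1, the high-affinity IgG receptor gene of macrophages, among 14753 genes. Fcgr1 had 247, 356 and 206 CPM in females 1 to 3, against 194, 244 and 231 CPM in males 1 to 3, and P2rx4 had 83.6, 118 and 67.2 CPM in females 1 to 3, against 61.9, 83.2 and 77.5 CPM in males 1 to 3. Both genes were highest in female 2 and lowest in male 1. The difference was 0.032 on the log2 scale, where the spread of P2rx4 itself was 0.296. H2-M3 (0.047) and B2m (0.057), a class I-like antigen presentation gene and the light chain of class I molecules, came next. Trpv2, with a spread of 0.195, was closest to Tor4a (0.019), Vav1 (0.036), a signalling gene of blood cells, and Parvg (0.036). Trpv1, with a spread of 0.483, was closest to Gm12185 (0.086), Synpo2 (0.105), an actin-binding protein gene of muscle, and Ankef1 (0.126). Skeletal muscle markers (8 of 8) and adipocyte markers (5 of 5) were also highest in female 2, the library where Trpv1 was highest; their part in the Trpv1 values was not tested. With 6 libraries and 14753 genes to choose from, these matches describe likeness of pattern and nothing further. Fcgr1 is itself one of the 10 macrophage markers summed above.

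**Figure D5:**
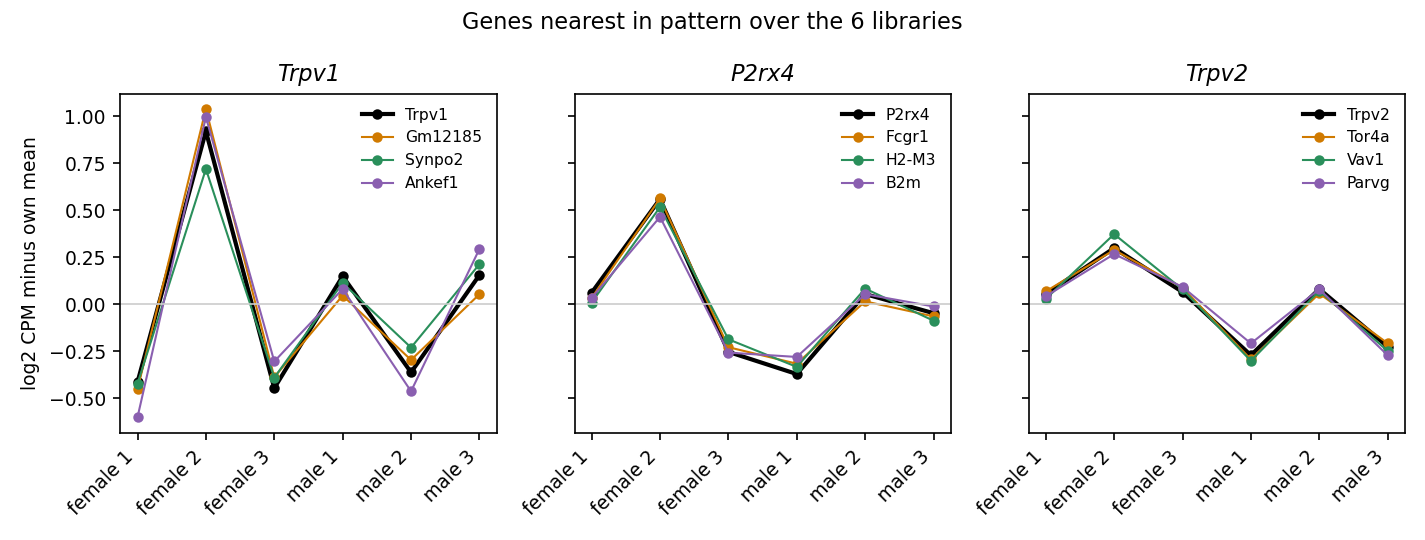
Log2 CPM minus the gene's own mean in each library for Trpv1, P2rx4 and Trpv2 (thick black lines) and the 3 genes nearest to each in pattern. All 3 channel genes peak in female 2.

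Around the channels, 80 further genes of their families and of ATP signalling were read from the same fit; the lists overlap in no member with the 10. Of 64 kept by the filter, 0 passed in edgeR, against 0.110% of all genes, 12 had an unadjusted p under 0.05, where 14.6% of all genes had one, limma-voom called 0, against 0.136% of all genes, and DESeq2 called 7, against 5.28%. The 7 were Enpp2, Entpd2, Nlrp3, Nt5e, P2ry13, Trpm2 and Trpm3. Over all 64 the median log2 fold change was 0.05, and 39 were above 0, where 53.6% of all genes were. Per list, the counts kept and the medians were 13 of 22 and 0.09 for other TRP channels, 4 of 5 and 0.20 for other P2X receptors, 7 of 8 and -0.11 for P2Y receptors, 14 of 15 and -0.01 for ATP release and breakdown, 10 of 13 and 0.00 for other force-gated channels, 9 of 10 and 0.05 for channel partners, and 7 of 7 and 0.15 for the inflammasome arm of P2rx7.

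Genes that break down or sense ATP were also read in the nerve, and the 5 named first are among the 3 of highest mean TPM in their lists. The ATP-degrading ectoenzyme gene Entpd1 averaged 53.1 ± 3.63 TPM in females and 48.6 ± 5.90 TPM in males (SD, n = 3 each, as in the rest of this paragraph). The P2Y receptor genes P2ry2 and P2ry6 averaged 39.6 ± 2.54 and 43.4 ± 5.23 TPM in females, against 42.8 ± 0.177 and 37.3 ± 7.01 TPM in males. Of the genes downstream of P2rx7, Il1b averaged 268 ± 60.0 TPM in females and 190 ± 60.3 TPM in males, and Gsdmd, the pore of inflammatory cell death, averaged 90.9 ± 12.9 TPM in females and 77.4 ± 15.5 TPM in males. None of these passed in edgeR. Nlrp3, the inflammasome sensor that P2rx7 is known to trigger, had the smallest adjusted p of the 64 and was picked for that reason, with its values in view. Females averaged 38.7 ± 2.49 CPM and males 23.0 ± 3.78 CPM. The sexes did not overlap, which held for 9.65% of all genes in this direction and 21.2% in either. The log2 fold change was 0.75 (SE 0.12, edgeR adjusted p 0.104). DESeq2 called Nlrp3, and so did edgeR without the low-count filter. Neutrophil markers summed to 5789, 2818 and 5242 TPM in females 1 to 3, against 4348, 3380 and 2055 TPM in males 1 to 3. Of these markers 6 of 7 were above 0, where 53.6% of all genes were, with a median log2 fold change of 0.51 and 0 past the threshold. Nlrp3 was highest in female 2, at 41.3 CPM. Macrophage (9 of 10 above 0, median 0.21), adipocyte (5 of 5, 0.45) and skeletal muscle markers (7 of 7, 0.94) lay the same way. Lists with medians below 0 are given below. The part of any list in the Il1b and Nlrp3 values was not tested.

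Entpd2, an ATP-degrading enzyme gene of nonmyelinating glia, was likewise picked with its values in view. Females averaged 28.4 ± 6.42 CPM and males 51.9 ± 3.6 CPM. The sexes did not overlap, which held for 11.5% of all genes in this direction and 21.2% in either. The log2 fold change was -0.87 (SE 0.15, edgeR adjusted p 0.126). DESeq2 called Entpd2, as it did 5.28% of all genes. Schwann cell markers lay the same way, with 10 of 10 below 0, a median of -0.45 and 0 past the threshold. So did fibroblast and perineurial markers, with 1 of 8 above 0, a median of -0.39 and 0 past the threshold. Sensory neuron markers had a median of -0.12, and the remaining marker lists had medians above 0. The part of any of these lists in the Entpd2 value was not tested.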

How the data were processed

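Per the labels' protocols, polyadenylated RNA was sequenced with a stranded kit in 6 libraries, 3 per sex. Trimmomatic 0.39, Salmon 1.5.2 and MultiQC 1.9 were used, per the submitters' processing notes. Per the file headers, the deposited tables give an estimated count and a TPM for each of 140789 transcripts; the authors did not normalize the counts, and TPM was deposited as Salmon made it. Where transcripts overlap, Salmon divides reads among them statistically, so transcript shares are less certain than gene sums.

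Counts and TPM were summed per gene, and counts were rounded. edgeR 4.0.16 (filterByExpr, TMM, quasi-likelihood test, robust, no covariate) compared female with male over 19129 genes, with Benjamini-Hochberg adjustment over all of them and a threshold of 0.05. limma 3.58.1 and DESeq2 1.42.0 were alternatives. The fit was tested on simulated data. Exons and sequences came from GENCODE M21. Likeness was taken over filtered genes with a mean of at least 1 CPM, for the 3 channel genes of largest spread.

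The members and the lists were chosen with earlier results of these data known. From each list that is not a marker list, the naming rule took the 3 genes of highest mean TPM and any gene past the threshold; only a selection of these is described. Each library is its own pool of animals, per the labels' protocols. No library pair agreed within sampling noise (chi-square of at least 26.4 per degree of freedom).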

Additional observations from a re-analysis of the deposited data

How the results depend on the processing

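No channel gene was called under any of the 17 alternatives. Of 153 log2 fold changes recomputed for the 9 genes, 135 kept their direction and 18 did not. Without female 2 and male 1, P2rx4 was -0.09, Piezo1 -0.02, Trpv1 -0.36 and P2rx7 0.03. With library totals alone, Trpv4 was 0.02, P2rx7 0.02 and Trpc1 0.00; with a length offset, P2rx7 was 0.08 and Trpc1 0.02; on log2(TPM + 1), P2rx7 was 0.07 and Trpc1 0.02; with coding transcripts only, Trpv4 was 0.00. Leaving out each library in turn gave -0.45 to 0.41 for Trpv1, -0.13 to 0.09 for Trpv4, -0.06 to 0.05 for P2rx7 and -0.11 to 0.06 for Trpc1.

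Over all genes, 21 were called; the count was 191 without the filter, 871 with DESeq2, 10 on log2(TPM + 1), and 4 to 205 with 1 library left out. Among the 80 further genes it was 3 without the filter, 7 with DESeq2 and 0 to 3 with 1 library left out, the 3 being Enpp2, Entpd2 and Trpm3 without female 3. The cause was not tested. With the replicate number as a block, 3 genes were called and no channel gene. Same-numbered libraries did not deviate together (correlations of -0.097, -0.189 and 0.014). With 3 libraries per sex, centred within each sex, such correlations cannot exclude a pairing by number. The limits are 3 libraries per sex, transcript shares that rest on Salmon's estimate, and few reads for Trpv1 and Trpa1.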
